A study of Mus musculus with 15 samples.

Results

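The comparison set the dorsal hippocampal formation of mothers stressed after birth against that of mothers with undisturbed reproductive experience (RE), with every nucleus of a mouse's punches added into 1 profile. Its members were 8 of the 15 single-nucleus libraries of the series: 4 from stress RE mice and 4 from control RE mice, all those of both groups in the labels' batches 2 and 3. Each library came from a separate adult female of the wild-type C57BL6/J strain, and held nuclei of 4 punches taken from the dorsal hippocampus on both sides. Control RE and stress RE females had both mated, carried, delivered and nursed a litter. Stress RE females had, in addition, scarce nesting material and a daily removal of their pups late in the postpartum period. By the methods, the removals ended before weaning, and nesting material was restored after it. The study's brain-wide bulk profiles were taken weeks after weaning, and its methods for single nuclei state no day. Nulliparous (NP) females, which had none of these experiences, are given here only as levels, from their 4 libraries in the same batches. Ages are not given as a number in the labels. Batch 1 held a stress RE library and no control RE library, so it could not inform the comparison and was left out. By the labels, each group had 2 libraries in batch 2 (stress RE mice 77 and 90, control RE mice 72 and 88) and 2 in batch 3 (stress RE mice 43 and 75, control RE mice 66 and 87). Values are given in that order below.

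The dorsal hippocampal formation holds the dentate gyrus, the CA fields and the subiculum, and is known for its role in spatial memory. Glucocorticoids reach its cells through the glucocorticoid receptor (Nr3c1) and the mineralocorticoid receptor (Nr3c2), which enter the nucleus and switch on targets such as Fkbp5, a chaperone partner that dampens the receptor. Dopamine acts through the receptors Drd1, which raises cyclic AMP, and Drd2, which lowers it, and it can also be joined to a glutamine of histone H3 by the transglutaminase Tgm2. A punch can also catch neighbouring tissue, such as choroid plexus, thalamus, cortex or striatum, whose neurons carry much higher levels of the dopamine receptors than the hippocampus does. By the study's methods, its punches took in parts of cortex, thalamus and ventral hippocampus.

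Barcodes and UMIs per library showed no detectable difference between the groups. The 4 stress RE libraries held 8241 to 12738 barcodes and 71425194 to 96211264 unique molecular identifiers (UMIs, one for each captured RNA molecule), and the 4 control RE libraries held 10178 to 11582 barcodes and 74263005 to 88694280 UMIs. Neither difference was larger than the spread between mice (two-sided exact permutation test, n = 4 and 4, p = 0.429 for barcodes and p = 0.743 for UMIs, with 0.0286 the smallest p that its 70 arrangements, which do not keep to batches, allow). The difference in means, stress RE minus control RE, was −1631.5 barcodes in batch 2 and −390.5 in batch 3, and 1738767.5 and 2479984 UMIs. The mitochondrial share of UMIs was 0.0956% ± 0.0477 in stress RE and 0.0852% ± 0.0219 in control RE (SD, n = 4 each, exact permutation p = 0.686), a difference of −0.00801 percentage points in batch 2 and 0.0288 in batch 3. The median UMIs per barcode were 4831, 7216, 8754 and 4515 in stress RE and 5088, 5983.5, 6539 and 4759.5 in control RE (exact permutation p = 0.514). Any 2 of the 8 libraries shared at most 47 barcodes, which was at most 0.461% of the smaller library. Genes of the dentate gyrus, CA1, CA3 and CA2, and hilar mossy cells were present, with no listed marker at 0 over the 8 libraries. No listed marker of thalamus, choroid plexus, striatal-type neurons or blood was at 0 either, so presence alone does not set the hippocampus apart. The summed level of the 9 dentate granule neuron genes was 1182 to 1866 UMIs per 1000000 UMIs of the library (CPM). In such summed profiles, fewer cells of a type and less RNA per cell cannot be told apart.

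No gene passed the test of stress RE against control RE. Of the 21301 genes tested, 0 passed an adjusted p under 0.05 in edgeR's quasi-likelihood test with batch as a term (0%), and the smallest adjusted p was 0.9999. DESeq2 with batch, and DESeq2 without batch over all 15 libraries, also called 0 genes, with 312 and 277 genes at an unadjusted p under 0.05. In the edgeR test 244 genes (1.15%) had an unadjusted p under 0.05, 161 of them higher in stress RE (0.756%) and 83 lower (0.39%). If the groups did not differ, a share of 0.05 of the genes would on average have such a p, and 1.15% lies below it. The groups did not overlap for 95 genes (0.446%), 30 of them higher and 65 lower in stress RE (0.141% and 0.305%). Among all arrangements of the 8 libraries into 4 and 4, a share of 0.0286 would leave a gene without overlap. Fold changes are given as log2, stress RE minus control RE, from this fit, and 52.3% of the 21301 lay above 0, with a median of 0.01.

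The counts of genes at an unadjusted p under 0.05 leaned on single mice. The 244 became 136 of 21550 genes without stress RE mouse 75 and 130 of 21596 without stress RE mouse 77. Without control RE mouse 88 the count was 149 of 21684. It rose to 621 of 21616 without stress RE mouse 43 and to 1041 of 21642 without stress RE mouse 90. Within batch 2 alone the count was 1311 of 20924 genes, of which 231 were higher in stress RE. Within batch 3 alone it was 965 of 21286, of which 777 were higher. In each of these fits 0 genes passed the adjusted threshold. Gene by gene, unadjusted p-values are therefore given below as a description of where these 8 profiles differed, not as calls.

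The spread between mice set what could have been seen. The 95% interval of the log2 fold change lay within a log2 difference of 1 in either direction for 18128 of the 21301 genes (85.1%), and within 0.5 for 10427 (49.0%). Precision followed the level of the gene. At 100 CPM and over the intervals of 98.7% of 1790 genes lay within 1, against 56.7% of the 5268 genes under 1 CPM. In counts simulated at the means and spread of these libraries, with 21301 genes, the same test recovered 6% of genes changed by log2 0.5, 60% of those changed by 1, 90% of those changed by 2 and 100% of those changed by 4 (50 genes at each size). The simulation drew each gene separately and without a batch difference, and the test also called 10 of its 21101 unchanged genes. In the measured data Gpr6, Adora2a and Chat, with log2 fold changes of 3.66, 2.75 and 2.53, did not pass. The simulated shares may therefore overstate what could be seen in these libraries. Only 134 measured genes had a log2 fold change beyond 1, of which 121 were higher in stress RE, and 87 of the 134 were under 1 CPM.

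**Figure D1:**
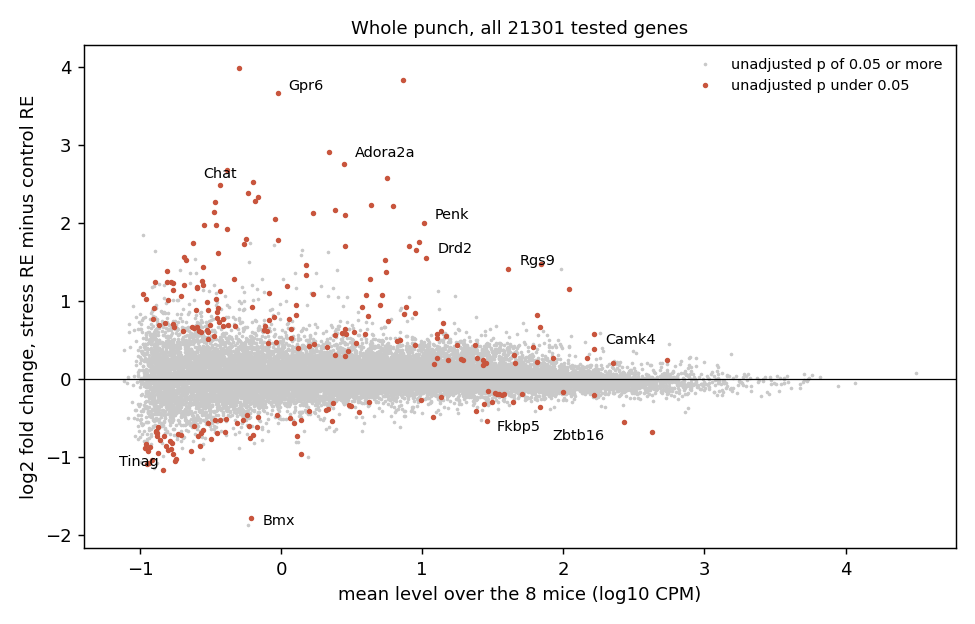
Log2 fold change between stress RE and control RE (vertical axis) against the mean level of each of the 21301 tested genes over the 8 mice (horizontal axis, log10 CPM); red points are the 244 genes with an unadjusted p under 0.05, and none passed the adjusted threshold. The cloud narrows as the level rises, and the points far above it include Gpr6, Adora2a and Penk.

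Among dopamine-related genes, the receptors Drd1 and Drd2 had the higher mean in stress RE, but the 4 stress RE mice ranged from control level or below to far above it. Drd1 averaged 8.31 CPM ± 7.44 in stress RE and 2.63 CPM ± 0.381 in control RE, and Drd2 averaged 16.2 CPM ± 13.7 and 5.20 CPM ± 1.80 (SD, n = 4 each). On the mm10 build Drd1 (ENSMUSG00000021478) lies on the minus strand at chr13:54051183-54055705 and Drd2 (ENSMUSG00000032259) on the plus strand at chr9:49340627-49408177. The counts are the UMIs assigned to each gene, and the parts of a gene that gave them were not examined. Drd1 stood at 9.11, 1.90, 3.74 and 18.5 CPM in the stress RE mice and at 2.55, 2.15, 3.07 and 2.74 CPM in the control RE mice. Stress RE mice 75 and 77 were high, mouse 43 was a little above the controls, and mouse 90 was below all of them. The log2 fold change of Drd1 was 1.52 (SE 0.55, 95% interval 0.26 to 2.78, edgeR unadjusted p = 0.0234, adjusted p = 0.9999). NP mice 35, 63, 37 and 73 stood at 10.5, 2.45, 2.70 and 4.97 CPM.

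Drd2 had the same order of stress RE mice, with 18.8, 4.36, 7.15 and 34.6 CPM in stress RE and 5.13, 3.29, 4.77 and 7.62 CPM in control RE. Its log2 fold change was 1.54 (SE 0.53, interval 0.32 to 2.77, edgeR unadjusted p = 0.0197). Ppp1r1b, which encodes the phosphatase inhibitor DARPP-32 of dopamine signalling, stood at 11.3, 1.69, 3.05 and 25.5 CPM in stress RE and at 2.05, 1.35, 2.25 and 2.35 CPM in control RE, with a log2 fold change of 2.21 (SE 0.70). The groups overlapped for each of these 3 genes: stress RE mouse 90 lay among the controls or below them, and for Drd2 mouse 43 also lay below control RE mouse 87.

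Genes known from striatal projection neurons shared this pattern. All 12 genes of that list had a log2 fold change above 0, 11 of the 12 at an unadjusted p under 0.05 (against 0.756% of all genes), 0 of the 12 without overlap of the groups, and 0 at the adjusted threshold. Their median log2 fold change was 1.60, against 0.01 over all genes, and that of the phosphodiesterase Pde10a was 0.27. The list was chosen with earlier results of these data known, and its genes mark the same neurons and can move together. The 11 genes are therefore not separate results, and the share over all genes is no independent test of them. Gpr6, an orphan receptor of these neurons, stood at 1.25, 0.132, 0.385 and 5.36 CPM in stress RE and at 0.0780, 0.0808, 0.214 and 0.100 CPM in control RE, a log2 fold change of 3.66 (SE 0.98). Adora2a, the adenosine receptor paired with Drd2 in striatal neurons, stood at 4.93, 0.420, 1.39 and 12.9 CPM in stress RE and at 0.715, 0.189, 0.541 and 1.16 CPM in control RE. Both genes again had mice 75 and 77 on top and mouse 90 among the controls. Rgs9, a brake on dopamine receptor signalling, had a log2 fold change of 1.41 (SE 0.52).

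**Figure D2:**
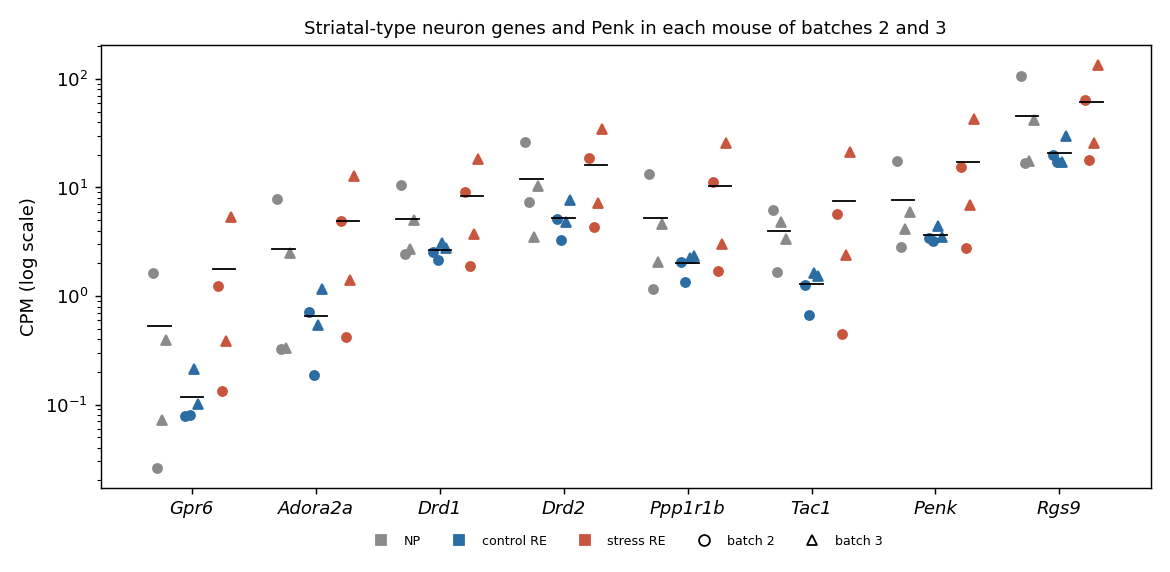
Levels in CPM (log axis) of 7 striatal-type genes and Penk in each NP, control RE and stress RE mouse of batches 2 (circles) and 3 (triangles), with black bars at the group means (n = 4 each). In every panel the control RE mice span a narrower range than the stress RE mice: for Gpr6 they lie between 0.0780 and 0.214 CPM and the stress RE mice between 0.132 and 5.36 CPM.

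Barcodes with UMIs of many striatal-type genes had the same order of stress RE mice. Barcodes holding UMIs of at least 5 of the 12 genes numbered 348, 29, 132 and 1203 in the stress RE libraries and 64, 14, 50 and 123 in the control RE libraries. As shares of all barcodes of the library these were 4.12%, 0.308%, 1.60% and 9.44% in stress RE and 0.603%, 0.133%, 0.491% and 1.06% in control RE. They count barcodes with a UMI, not nuclei that express the genes: Pde10a is 1 of the 12, and no background from free RNA was measured here. The summed level of the 12 genes was 1322, 763, 901 and 1736 CPM in stress RE and 841, 803, 764 and 862 CPM in control RE, with 609 to 1510 CPM in the NP mice, and 77.4% of the UMIs of that sum came from Pde10a, which hippocampal neurons also express. With the barcodes left out that held at least 5 genes of any of 6 lists of neighbouring tissue, a rule chosen after the data were seen and one that uses these same genes, the median log2 fold change of the list was 0.52, and 2 of the 12 genes kept an unadjusted p under 0.05. Over all genes 152 of 20877 had such a p in that fit, 89 of them higher in stress RE. The log2 fold change of Adora2a was then 0.98, that of Drd1 0.55, that of Drd2 0.48 and that of Rgs9 0.00. The barcodes left out held 19.2% ± 9.66 of UMIs in stress RE and 12.5% ± 3.04 in control RE (SD, n = 4 each, exact permutation p = 0.314). The difference was −0.604 percentage points in batch 2 and 13.9 in batch 3. Mouse 77, high for striatal-type genes, was at 10.9%, below control RE mouse 72 at 15.8%, but this share pools the 6 lists. Barcodes with at least 5 thalamic genes numbered 117 in mouse 77 and 667 in mouse 72. Those with at least 5 striatal-type genes numbered 348 and 64. Removing barcodes by these genes lowers their values by construction, and the part of such barcodes in the differences was not tested. With the planned limit of at least 3 genes, which 13.6% to 29.1% of barcodes met, the median was 0.57 and 1 gene kept such a p. Over all genes 175 of 20261 had such a p in that fit, 103 of them higher.

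The count of 11 also depended on single mice. It was 1 without stress RE mouse 75, 1 without stress RE mouse 77, 4 without control RE mouse 66, 6 without control RE mouse 88 and 7 without control RE mouse 87, and the median log2 fold change was 0.94 without mouse 75 and 1.22 without mouse 77. Both batches had the same direction for each gene named here: the log2 ratio of means for Drd1 was 1.23 in batch 2 and 1.94 in batch 3, and that for Drd2 was 1.46 and 1.75. The count at an unadjusted p under 0.05 was 0 of 11 tested genes in batch 2 alone and 9 of 12 in batch 3 alone. Over all genes 231 of 20924 and 777 of 21286 were higher at such a p. Without mouse 75 the log2 fold change was 0.86 for Drd1, 0.95 for Drd2, 1.32 for Ppp1r1b, 1.79 for Adora2a, 2.23 for Gpr6 and 0.75 for Rgs9. Signs of library quality moved with this pattern among the stress RE mice. Mice 75 and 77 had the lowest median UMIs per barcode of their group, and the mitochondrial share of UMIs, 0.0988%, 0.0385%, 0.0903% and 0.155% in mice 77, 90, 43 and 75, had the order of the striatal-type genes. Their part in the result was not tested.

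The rest of the dopamine pathway lay closer to 0. Of the 20 genes listed for dopamine signalling and histone dopaminylation, 17 were tested, and 14 of them had the higher level in stress RE and 3 the lower one, for a median log2 fold change of 0.25 (11 and 6 with DESeq2's scaling of the libraries in the same edgeR fit). The 5 with an unadjusted p under 0.05 (against 0.756% of all genes) all belong to the 6 genes shared with the striatal-type list. The other 11 tested genes, among them receptors, transporters and the enzymes that make and break down dopamine, ranged from −0.22 to 0.63 with 0 at an unadjusted p under 0.05, and the intervals of 10 of the 11 lay within 1. Tgm2 was the lowest of them. It stood at 1.69, 1.24, 1.10 and 1.42 CPM in stress RE and at 1.53, 1.63, 1.15 and 1.88 CPM in control RE, with a log2 fold change of −0.22 (SE 0.20, interval −0.68 to 0.25). With any 1 mouse left out, the value of Tgm2 lay between −0.33 and −0.03. Th, Slc6a3 and Drd4, which encode the enzyme, the transporter and a receptor of dopamine, were too low to test, with 49, 22 and 40 UMIs over the 8 libraries. The count of 5 was 0 without stress RE mouse 75 and 0 without mouse 77, 1 without control RE mouse 66, 2 without control RE mouse 88, 3 without control RE mouse 87 and 8 without stress RE mouse 90. Over all genes 1041 of 21642 had an unadjusted p under 0.05 without mouse 90. The median of the 17 was 0.08 without stress RE mouse 75 and, over 18 tested genes, 0.37 without stress RE mouse 90. It was 0.01 and 0.02, with 0 genes at an unadjusted p under 0.05, with the barcodes of 5 or more and of 3 or more neighbouring-tissue genes left out, limits that use 6 genes of this list.

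Neuropeptide genes leaned the same way. Of the 18 tested genes for neuropeptides and granins 17 were higher in stress RE, with a median log2 fold change of 0.43, and Penk and Tac1 had an unadjusted p under 0.05. Over all genes 0.756% were higher at such a p. Penk, the precursor of enkephalins, stood at 15.4, 2.80, 6.92 and 43.2 CPM in stress RE and at 3.40, 3.22, 4.39 and 3.53 CPM in control RE, a log2 fold change of 2.00 (SE 0.64, edgeR unadjusted p = 0.0139). Tac1, the precursor of substance P, had 5.68, 0.444, 2.41 and 21.4 CPM against 1.27, 0.673, 1.62 and 1.54 CPM, a log2 fold change of 2.23 (SE 0.84). Both are also abundant in striatal projection neurons, and both had mice 75, 77 and 43 above every control and mouse 90 below every control. With the barcodes of 5 or more neighbouring-tissue genes left out, the log2 fold change was 0.90 for Penk and 1.23 for Tac1. Without stress RE mouse 75 it was 1.17 for Penk and 1.20 for Tac1. All 18 tested genes of the list were higher with the barcodes of 5 or more neighbouring-tissue genes left out (median 0.41). Of these, 2 had an unadjusted p under 0.05, and over all genes 89 of 20877 were higher at such a p. When those of 3 or more were left out, 14 of 16 tested genes were higher (median 0.34). Again 2 had such a p, and over all genes 103 of 20261 were higher at it. The median of the list was 0.23 without control RE mouse 87, 0.26 without stress RE mouse 75 and 0.28 without stress RE mouse 77. Within batch 2 alone 10 of the 18 neuropeptide genes were higher (median 0.11), and within batch 3 alone 17 were (median 0.71). The count of 2 was 0 without stress RE mouse 77, 1 without stress RE mouse 75 or control RE mouse 66, 87 or 88, 3 without stress RE mouse 43 and 6 without stress RE mouse 90. Over all genes 1041 of 21642 had an unadjusted p under 0.05 without mouse 90.

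Chat, which makes acetylcholine, had the smallest p of the 68 named genes (edgeR unadjusted p = 0.00276, adjusted p = 0.9999). It stood at 0.994, 0.228, 0.520 and 2.65 CPM in stress RE and at 0.117, 0.108, 0.214 and 0.263 CPM in control RE, where the lowest library held 8 UMIs, and the 4 NP mice spread from 0.559 to 8.38 CPM. Only stress RE mouse 90 overlapped the controls. The log2 fold change of Chat was 2.53 (SE 0.60), lay between 1.81 and 2.89 with any 1 of the 8 mice left out, and was 1.38 with the barcodes of 5 or more neighbouring-tissue genes left out.

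Genes of the glucocorticoid response were centred on 0, and the 2 at an unadjusted p under 0.05 were lower in stress RE. Of 18 genes for corticosteroid receptors and their targets, all tested, 8 were higher and 10 lower, with a median log2 fold change of −0.05, and 17 intervals lay within 1. Fkbp5 stood at 56.3, 70.9, 59.1 and 54.6 CPM in stress RE and at 73.7, 92.3, 66.2 and 76.3 CPM in control RE. Stress RE mice 77, 43 and 75 were below every control, and mouse 90 was above control RE mouse 66 alone. Fkbp5 (ENSMUSG00000024222) lies on the minus strand at chr17:28399094-28517527 of mm10. Its log2 fold change was −0.37 (SE 0.13, interval −0.68 to −0.06, edgeR unadjusted p = 0.0241, adjusted p = 0.9999), with log2 ratios of −0.38 in batch 2 and −0.32 in batch 3.

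Zbtb16, a transcription factor induced by glucocorticoids in many tissues, stood at 224, 276, 228 and 156 CPM in stress RE and at 271, 368, 287 and 350.1 CPM in control RE. Again 3 stress RE mice were below every control, and mouse 90 was above control RE mouse 72 alone. Its log2 fold change was −0.55 (SE 0.20, interval −1.02 to −0.09, edgeR unadjusted p = 0.0243). The 83 genes that were lower at such a p make up 0.39% of all genes. The count of 2 in this list was 0 without stress RE mouse 77, control RE mouse 87 or control RE mouse 88, 1 without stress RE mouse 75, and 3 without control RE mouse 72 or stress RE mouse 90. It was 1 with the barcodes of 5 or more neighbouring-tissue genes left out, and 2 with those of 3 or more. For Fkbp5 and Zbtb16 the stress RE mice ranked 90, 43, 77 and 75 from the top, the reverse of their order for Drd1 and Drd2. A link between these orders was not tested. NP mice lay between or across the groups, at 55.9 to 74.3 CPM for Fkbp5 and 241 to 293 CPM for Zbtb16.

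Neither corticosteroid receptor differed beyond the spread between mice. Nr3c1 stood at 146, 143, 166 and 162 CPM in stress RE and at 136, 116, 159 and 138 CPM in control RE, a log2 fold change of 0.15 (SE 0.08, interval −0.04 to 0.34). Nr3c2 had 1025, 1183, 1015 and 675 CPM against 955, 1111, 897 and 905 CPM, a log2 fold change of −0.01 (SE 0.17, interval −0.41 to 0.39), with mouse 75 the lowest of the 8. The sign for Nr3c2 changes with the scaling of the libraries. Of the corticotropin-releasing hormone system 4 of 7 genes were tested, 3 higher and 1 lower (median 0.10, but −0.13 without stress RE mouse 77, −0.02 without control RE mouse 87 and −0.08 without control RE mouse 88), and the receptor Crhr1 had a log2 fold change of −0.17 (SE 0.13, interval −0.47 to 0.14). With any 1 mouse left out, the value of Crhr1 lay between −0.26 and −0.03.

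Receptors for the hormones of pregnancy and lactation had values on both sides of 0. Of 12 tested genes 8 were higher and 4 lower, with a median log2 fold change of 0.02, 0 at an unadjusted p under 0.05 and 11 intervals within 1. Without control RE mouse 72, 4 were higher and 8 lower (median −0.04), and the split was 8 and 4 in batch 2 (median 0.04) and 5 and 7 in batch 3 (median −0.08). Prlr, the prolactin receptor, stood at 17.8, 15.2, 15.1 and 25.3 CPM in stress RE and at 11.6, 13.2, 16.9 and 21.1 CPM in control RE, a log2 fold change of 0.22 (SE 0.16, interval −0.15 to 0.59). With any 1 mouse left out it lay between 0.10 and 0.37, and the log2 ratio of Prlr was 0.42 in batch 2 and 0.09 in batch 3. Oxtr, the oxytocin receptor, had 0.490, 0.180, 0.322 and 0.440 CPM against 0.364, 0.283, 0.361 and 0.175 CPM, with at least 14 UMIs in every library, a log2 fold change of 0.23 and an interval of −0.56 to 1.03.

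**Figure D3:**
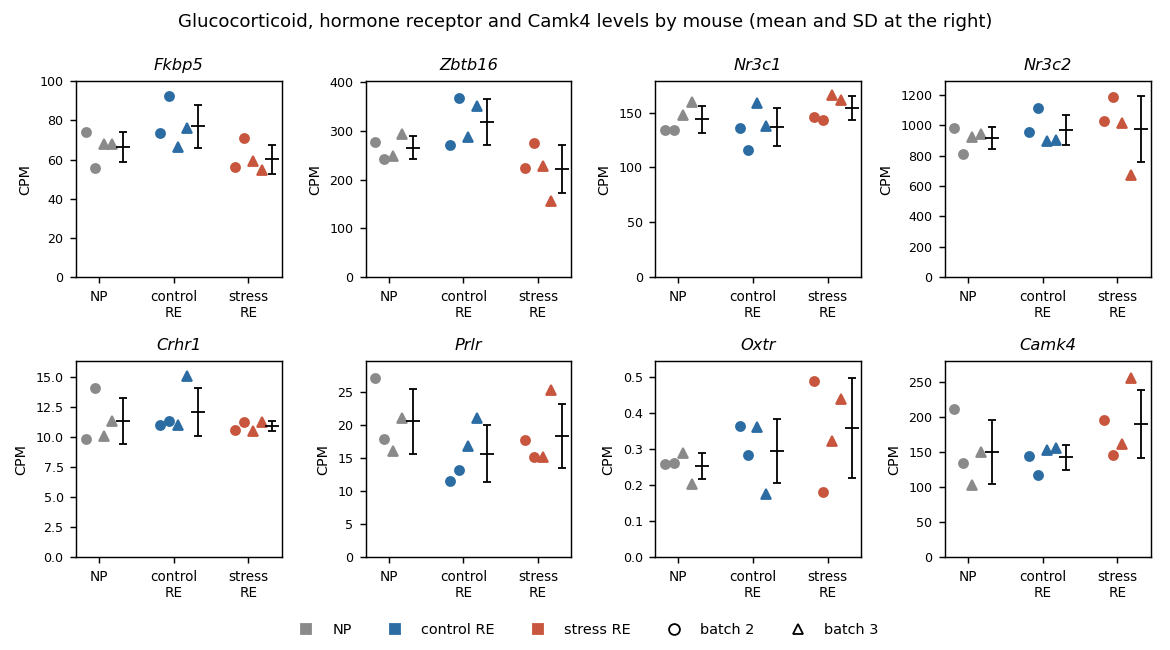
Levels in CPM (each axis starts at 0) of Fkbp5, Zbtb16, the corticosteroid receptors Nr3c1 and Nr3c2, Crhr1, Prlr, Oxtr and Camk4 in each mouse of batches 2 (circles) and 3 (triangles), with the mean and SD of each group beside its points (n = 4). For Fkbp5 and Zbtb16 3 of the 4 stress RE mice lie below all 4 control RE mice, and in every panel the groups overlap.

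Genes of synaptic transmission and plasticity were mostly bounded within a log2 difference of 1, like most genes of their level. Of all genes at 10 to 100 CPM 96.5% had an interval within 1, and of those at 100 CPM and over 98.7%. For the 27 glutamate receptor and long-term potentiation genes, all tested, every interval lay within 1, the median log2 fold change was −0.05, 9 were higher and 18 lower. Without stress RE mouse 75 the split was 15 and 12 (median 0.01), without stress RE mouse 90 it was 5 and 22 (median −0.12), and it was 13 and 14 in batch 2 and 4 and 23 in batch 3. The exception in p was Camk4, a calcium-dependent kinase that acts in the nucleus. It stood at 195, 146, 161 and 255 CPM in stress RE and at 143, 117, 153 and 156 CPM in control RE, a log2 fold change of 0.38 (SE 0.13, interval 0.09 to 0.67, edgeR unadjusted p = 0.0172). Camk4 had the order of mice of the striatal-type genes, with 75 and 77 on top and 90 within the controls, and with the barcodes of 5 or more neighbouring-tissue genes left out its log2 fold change was 0.06. The count of 1 was 0 without stress RE mouse 75, stress RE mouse 77 or control RE mouse 88, and 2 without stress RE mouse 43.

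The 14 enzymes and partners that write or erase methylation of histone H3 lysine 4 ranged from −0.11 to 0.05, with every interval within 1, 3 higher and 11 lower (6 and 8 with scaling by total UMIs, 11 and 3 within batch 2 alone, and 1 and 13 within batch 3 alone). The nearest to the threshold was the demethylase Kdm5c, at 63.8, 57.9, 62.7 and 67.3 CPM in stress RE against 64.2, 64.4, 66.4 and 71.7 CPM in control RE (log2 fold change −0.11, SE 0.06, interval −0.25 to 0.04). Of 13 tested GABA-A receptor subunits 6 were higher and 7 lower (median −0.02), and 12 intervals lay within 1. With slightly different numbers tested, 12 were higher and 2 lower without stress RE mouse 75, 2 and 12 without stress RE mouse 90, 8 and 4 in batch 2 and 4 and 10 in batch 3. The subunit whose interval reached beyond 1 was Gabrq, whose lowest library held 5 UMIs in stress RE and 9 in control RE. Of 24 tested receptors for serotonin, noradrenaline and acetylcholine 14 were higher and 10 lower (median 0.02), against 10 and 15 without control RE mouse 87 (median −0.02). Htr2c, a serotonin receptor also abundant in choroid plexus, stood at 225, 139, 147 and 264 CPM in stress RE and at 93.4, 82.9, 200.0 and 164 CPM in control RE, a log2 fold change of 0.57 (SE 0.24, edgeR unadjusted p = 0.0436) that was 0.37 without stress RE mouse 77. Its log2 ratio was 1.05 in batch 2 and 0.17 in batch 3.

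Immediate early genes, which neurons switch on within minutes of firing, leaned in no stable direction. Of 18, all tested, 6 were higher and 12 lower, with a median of −0.03 and a range of −0.49 to 0.49, and 0 had an unadjusted p under 0.05. For this list 12 of the 18 intervals lay within 1, so changes of that size could not be bounded for the other 6. Without control RE mouse 72, 14 of the 18 were higher (median 0.14), and without control RE mouse 66 or stress RE mouse 90, 12 were (median 0.05 each).

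Marker genes of the hippocampal subfields differed by less than the spread between mice. Of the 9 dentate granule neuron genes 8 were lower in stress RE, with a median log2 fold change of −0.15, every interval within 1 and 0 at an unadjusted p under 0.05. The median went to 0.00 without stress RE mouse 77 and to −0.38 without stress RE mouse 90. The dentate gene nearest the threshold, Gpc4, stood at 49.5, 92.1, 69.7 and 55.0 CPM in stress RE and between 66.6 and 91.6 CPM in control RE. Of the CA1 genes 3 of 9 were higher (median −0.12), but 8 of 9 were without control RE mouse 66 (median 0.25) and 0 of 9 without stress RE mouse 77 (median −0.39). The batches were opposed for CA1, with 7 of 9 higher in batch 2 (median 0.29) and 0 of 9 in batch 3 (median −0.37). Of the CA3 and CA2 genes 4 of 11 were higher (median −0.03, every interval within 1), of the subiculum genes 3 of 6 (median 0.14, no interval within 1; 0.78 in batch 2 and −0.20 in batch 3) and of the hilar mossy cell genes 3 of 7 (median 0.00). The mossy cell list holds Drd2, which gave its only unadjusted p under 0.05.

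GABAergic interneuron genes were higher in stress RE for 12 of 13 (median 0.29), with Dlx1, a transcription factor of these cells, at an unadjusted p of 0.0384 in edgeR. Dlx1 stood at 8.71, 2.85, 3.60 and 6.20 CPM in stress RE and at 4.08, 2.53, 3.09 and 2.20 CPM in control RE, a log2 fold change of 0.80 (SE 0.33) that was 0.46 without stress RE mouse 77. Deep-layer cortical genes were higher for 7 of 9 (median 0.55), among them Foxp2, a transcription factor also found in striatal and thalamic neurons, at 119.9, 77.3, 104 and 243 CPM against 86.2, 51.3, 118 and 103 CPM. Neural progenitor and neuroblast genes were higher for 10 of 11 (median 0.19). Without stress RE mouse 77 the medians of these 3 lists were 0.14, 0.20 and 0.10, and without stress RE mouse 75 they were 0.22, 0.28 and 0.10. In these 3 lists stress RE mice 77 and 75 had the highest summed levels and mouse 90 fell within the range of the controls or below it.

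Thalamic and habenular genes were higher for 7 of 10 and 4 of 6, with medians of 0.04 and 0.12, and the batches were opposed. Thalamic genes were higher for 1 of 10 in batch 2 (median −0.29) and 10 of 10 in batch 3 (median 0.55, 4 at an unadjusted p under 0.05), and also for 10 of 10 without stress RE mouse 77 (median 0.33) or control RE mouse 72 (median 0.34). Over all genes 965 of 21286 had such a p in batch 3 alone. Habenular genes had medians of −0.21 in batch 2 and 0.38 in batch 3, and one of −0.31 without stress RE mouse 43. Zic4, a transcription factor of the medial thalamus and habenula, was at a log2 fold change of 0.43 (SE 0.18), with log2 ratios of 0.02 in batch 2 and 0.88 in batch 3, and Gng8, a G protein subunit of the medial habenula, was at 0.79 (SE 0.31).

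Choroid plexus genes were higher in stress RE for 10 of 11 (median 0.53), with Clic6, an ion channel protein, and Folr1, the folate receptor of this epithelium, at an unadjusted p under 0.05. Over all genes 0.756% were higher at such a p. Clic6 stood at 7.87, 3.03, 4.32 and 10.8 CPM in stress RE and at 2.86, 1.36, 5.04 and 4.73 CPM in control RE (log2 fold change 0.94, SE 0.39). Folr1 had a log2 fold change of 0.82 (SE 0.36). The count of 2 was 0 without stress RE mouse 75 or 77 or control RE mouse 87 or 88. It was 1 without control RE mouse 66 or 72 and 3 without stress RE mouse 90. Without stress RE mouse 43 it was 6, in a fit where 621 of all 21616 genes had an unadjusted p under 0.05. The median was 0.32 without control RE mouse 88, 0.33 without stress RE mouse 77, 0.95 within batch 2 and 0.21 within batch 3. Without stress RE mouse 77 the log2 fold change was 0.57 for Clic6 and 0.49 for Folr1. The summed level of the list was 417, 190.0, 292 and 670 CPM in stress RE and 209, 157, 323 and 268 CPM in control RE, so mice 75 and 77 were again highest. Ependymal genes were higher for 9 of 10 (median 0.39) and blood genes for 5 of 5 (median 0.30), with 0 at an unadjusted p under 0.05 in either list. Both rested on single mice: without stress RE mouse 75 the ependymal genes were higher for 4 of 10 (median −0.03) and the blood median was 0.04, and without stress RE mouse 77 blood genes were higher for 2 of 5 (median −0.18). Hba-a2, the blood gene nearest the threshold, has a near-identical copy and its counts are uncertain.

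Myelin genes leaned one way with a wide spread between mice. Of the 16 oligodendrocyte and myelin genes 15 were higher in stress RE, with a median of 0.30 and 0 at an unadjusted p under 0.05. Their summed level was 2325, 999, 1475 and 2788 CPM in stress RE and 1328, 1180.4, 1587 and 1825 CPM in control RE. Mice 75 and 77 lay above every control and mouse 90 below every control, and without stress RE mouse 77 the median was 0.03, whereas without mouse 90 it was 0.43 and 6 of the 16 genes had an unadjusted p under 0.05. Over all genes 1041 of 21642 had such a p without mouse 90. Ugt8a, which makes the myelin lipid galactosylceramide, stood at 116, 62.2, 75.6 and 112 CPM in stress RE and at 63.1, 49.6, 72.5 and 86.8 CPM in control RE (log2 fold change 0.41, SE 0.20). With any 1 mouse left out, the log2 fold change of Ugt8a lay between 0.19 and 0.54. Its log2 ratio was 0.66 in batch 2 and 0.24 in batch 3.

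Oligodendrocyte precursor genes were higher for 5 of 9 (median 0.01) and astrocyte genes for 6 of 14 (median −0.03), with 9 of 9 and 13 of 14 intervals within 1. Their medians were 0.23 and 0.22 in batch 2 and −0.19 and −0.27 in batch 3. Of 15 tested microglia and macrophage genes 11 were higher (median 0.22), with a median of 0.07 without stress RE mouse 75 and also without stress RE mouse 77, and of 0.10 without control RE mouse 87. Cd68, a lysosomal protein of phagocytes, stood at 1.39, 0.961, 1.17 and 2.29 CPM in stress RE and at 0.741, 0.956, 1.05 and 0.826 CPM in control RE, a log2 fold change of 0.64 (SE 0.24, edgeR unadjusted p = 0.0277) that was 0.40 without stress RE mouse 75. Endothelial genes were higher for 1 of 9 (median −0.20), leptomeningeal fibroblast genes for 3 of 10 (median −0.23), and pericyte and smooth muscle genes for 5 of 9 (median 0.02), with 0 at an unadjusted p under 0.05 in these 3 lists. Without control RE mouse 87 endothelial genes were higher for 8 of 9 (median 0.18) and leptomeningeal genes for 9 of 10 (median 0.10). Within batch 2 alone 7 of 9 endothelial genes were higher (median 0.16), against 1 of 9 in batch 3 (median −0.65), and the pericyte medians were 0.29 and −0.33.

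All 13 heat shock and chaperone genes were higher in stress RE, by a median of 0.16, with 0 at an unadjusted p under 0.05 and 7 intervals within 1. With DESeq2's scaling of the libraries 11 of the 13 were higher. The summed level was 834, 438, 828 and 1005 CPM in stress RE and 710, 627, 897 and 335 CPM in control RE. Control RE mouse 87 was the lowest of the 8, and without it 4 of the 13 genes were higher and the median was −0.03. Within batch 2 alone 3 of the 13 were higher (median −0.08) and within batch 3 alone 13 of 13 (median 0.48). The mitochondrially encoded genes, a sign of how much cytoplasm came with the nuclei, had 9 of 13 higher (median 0.06), and 0 of 13 without stress RE mouse 75 (median −0.14), stress RE mouse 77 (−0.14) or control RE mouse 87 (−0.11) and within batch 2 alone (−0.16), with summed levels of 988, 385, 903 and 1549 CPM in stress RE against 832, 701, 1167 and 709 CPM in control RE.

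Clock genes were higher for 10 of 16 (median 0.03, every interval within 1). Dbp, a transcription factor under the direct control of the clock, stood at 18.0, 15.4, 16.9 and 32.6 CPM in stress RE and at 15.0, 12.3, 17.4 and 14.6 CPM in control RE, a log2 fold change of 0.43 (SE 0.17), which was 0.20 without mouse 75. Cholesterol synthesis and uptake genes were higher for 13 of 16 (median 0.09, every interval within 1), and extracellular matrix genes for 10 of 27 (median −0.06, 20 intervals within 1), with 0 at an unadjusted p under 0.05 in either list. Without stress RE mouse 75 the cholesterol median was 0.02. The matrix genes had medians of 0.09 in batch 2 and −0.29 in batch 3.

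**Figure D4:**
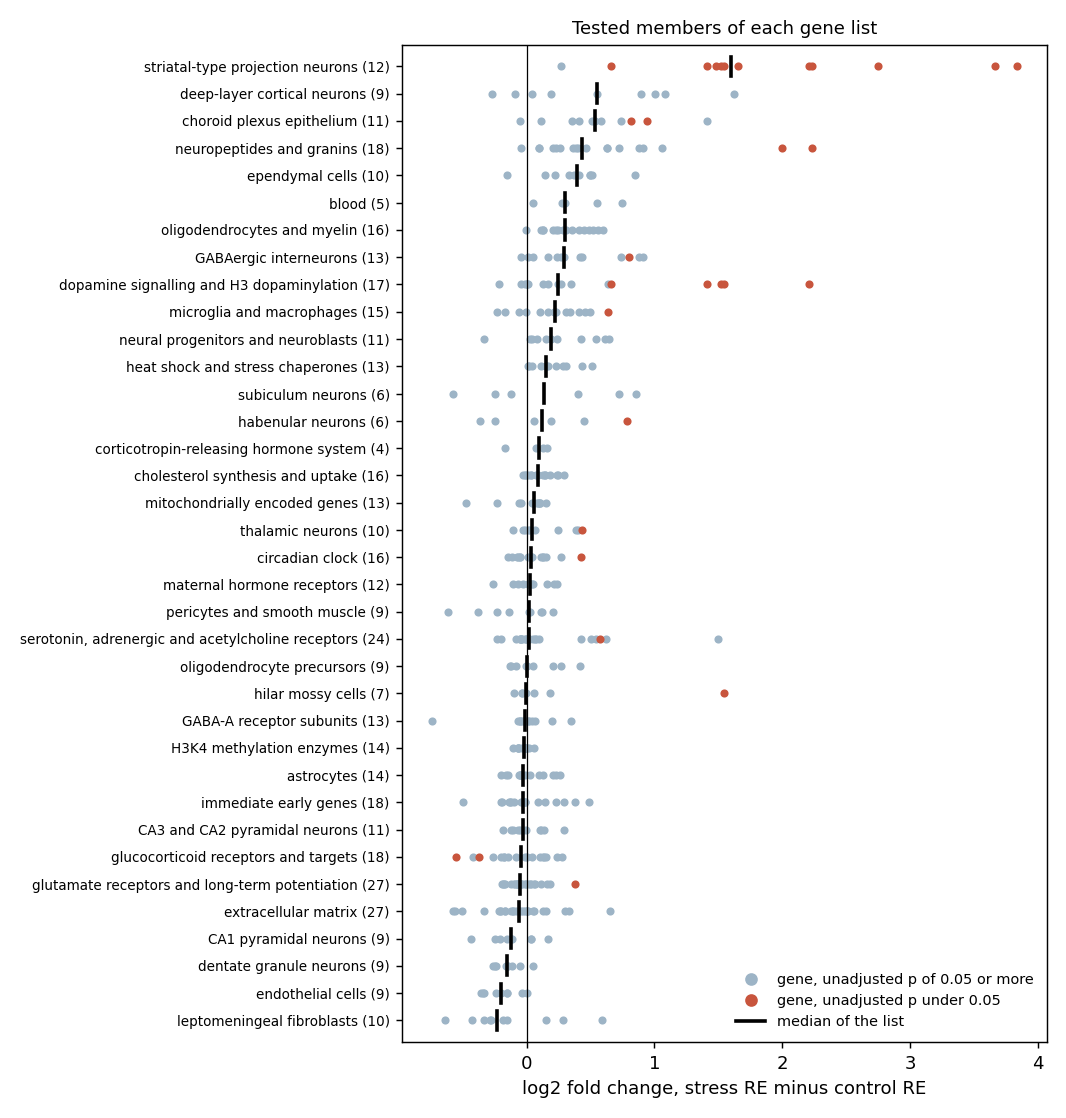
Log2 fold change of every tested member of the 36 gene lists (points; the number tested is in brackets), with the median of each list as a black bar and members with an unadjusted p under 0.05 in red. The striatal-type list lies apart with a median of 1.60, and the other 35 lists have medians between −0.23 and 0.55.

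With 1 of the 8 mice left out at a time, the median of 24 of the 36 lists changed sign in at least 1 fit, and for 19 lists the medians of the 2 batches were opposed. The 12 lists whose median kept its sign in all 8 fits were those of striatal-type, deep-layer cortical, interneuron, progenitor, choroid plexus, myelin, microglia, dopamine, neuropeptide and cholesterol genes, all higher, and of glucocorticoid and matrix genes, both lower. The glucocorticoid median was 0.01 within each batch alone.

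Of the 36 lists 13 had at least 1 member at an unadjusted p under 0.05. With stress RE mouse 75 left out 10 of these 13 had none, with stress RE mouse 77 left out 11, with control RE mouse 87 or 88 left out 8 each, with control RE mouse 66 left out 6, with control RE mouse 72 left out 3, and with stress RE mouse 43 left out 2. Leaving out stress RE mouse 90 removed none. For Dlx1, Gng8, Cd68, Dbp, Zic4 and Htr2c, each the only such gene of its list, 5 or 6 of the 8 omissions took the p above 0.05, that of mouse 75 among them. Mice 75 and 77 had the highest summed levels of the striatal-type, choroid plexus and myelin genes, and mouse 90 was the lowest of the stress RE mice in all 3.

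**Figure D5:**
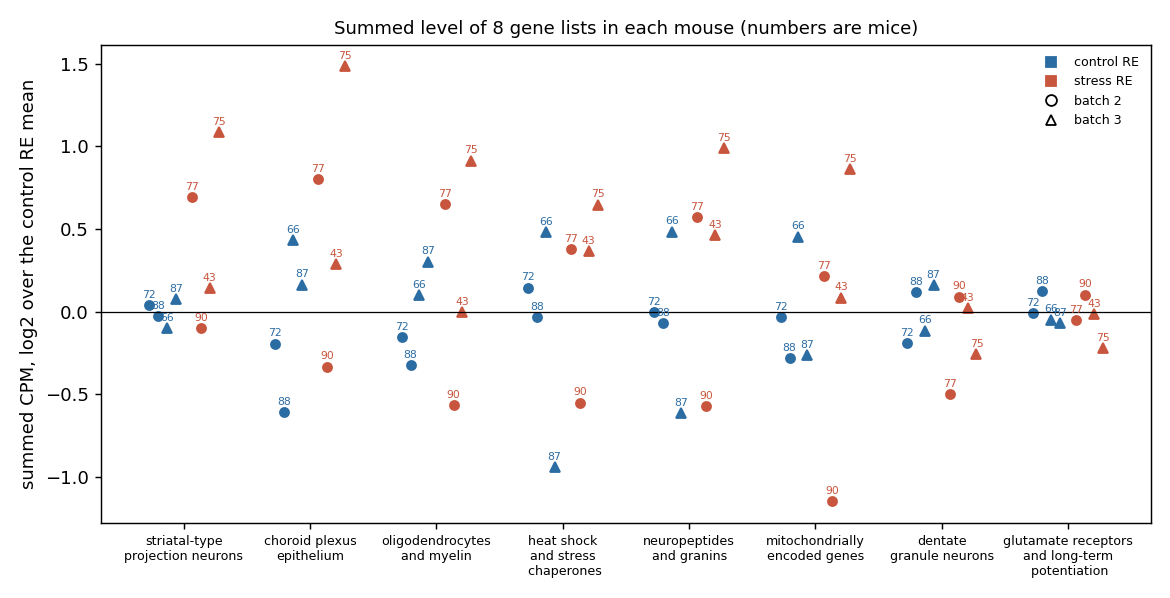
Summed CPM of 8 gene lists in each control RE (blue) and stress RE (red) mouse, as log2 over the control RE mean, with mouse numbers beside the points, circles for batch 2 and triangles for batch 3. Stress RE mice 75 and 77 lie highest and mouse 90 lowest of their group for striatal-type, choroid plexus and myelin genes, while the glutamate receptor list stays close to 0 in all 8 mice.

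The 23 named genes with the smallest unadjusted p included 7 whose groups did not overlap, each with few UMIs. Over all genes the share without overlap was 0.446%. The 23 were picked by their p in these same mice, so a larger share follows from the choice. Theg, a testis gene, stood at 0.140, 0.108, 0.146 and 0.207 CPM in stress RE and at 0.0520, 0.0673, 0.0902 and 0.0751 CPM in control RE, which were 49 and 23 UMIs in all. Tinag, a basement membrane protein gene, had 0.140, 0.120, 0.0935 and 0.129 CPM against 0.325, 0.162, 0.293 and 0.188 CPM, from 39 and 78 UMIs. The others were Adam7, Cytip, Cdh1 and Tmem215, higher in stress RE by 0.68 to 2.48, and Platr26, lower by a log2 fold change of −0.78.

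Among the overlapping genes, Bmx, a tyrosine kinase of endothelial cells, had the lowest log2 fold change of the 23, −1.79 (SE 0.59). It stood at 0.336, 0.264, 0.208 and 0.310 CPM in stress RE and at 1.33, 0.323, 0.372 and 1.80 CPM in control RE, so that control RE mice 72 and 87 were high and the other two near the stress RE mice, and without control RE mouse 87 the log2 fold change was −1.11. Ano1, a chloride channel, stood at 9.70, 2.40, 6.61 and 13.7 CPM in stress RE and at 3.61, 2.79, 2.27 and 3.12 CPM in control RE, a log2 fold change of 1.37 (SE 0.43), while the NP mice reached 47.3 CPM. Dnase1l3, Wfdc2, Ccl4, Nek5, Six3os1, Inhbc, Postn and Lbhd2 were higher by 0.91 to 1.75, and Eps8l1 was lower, at −0.49 (SE 0.15). The most highly expressed genes were near 0: Malat1, the nuclear long noncoding RNA, was at 0.07 (SE 0.23), the potassium channel partner Kcnip4 at −0.05 (SE 0.21) and the adhesion gene Lsamp at −0.09 (SE 0.18), none with a sign that held in every alternative fit.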

How the data were processed

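Nuclei were profiled with 10x Chromium 3' v3.1 chemistry. The deposited counts are whole UMIs per gene and barcode, made by the authors with Cell Ranger 7.1.0 (the file headers name 7.0.0) against the mouse build mm10 and limited to barcodes called as nuclei. Here the UMIs of all 32285 genes were summed over all barcodes of a library, so CPM are UMIs per 1000000 of the library's own UMIs. Genes passing filterByExpr were scaled by TMM and tested with edgeR 4.0.16 (glmQLFit, glmQLFTest, batch and group as terms, prior count 0.125, R 4.3.3) with Benjamini-Hochberg adjustment over all genes. SE and 95% intervals come from the same fit. DESeq2 1.42.0 served as an alternative. Mice are the replicates. By the methods, the authors corrected free RNA and removed doublets in their own analysis. They also removed clusters of choroid plexus, ependymal, vascular leptomeningeal, deep-layer cortical and ventral granule cells. None of these steps was taken here, where every deposited barcode was kept. The code was tested on simulated data.

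The comparison and the gene lists were chosen with earlier results of these data known. Genes named were the 23 with the smallest p (11 predicted genes passed over, and 1 other gene not reported here), up to 4 members of each list at an unadjusted p under 0.05 or else the one with the smallest p, Drd1, Drd2, Tgm2, Nr3c1, Nr3c2, Fkbp5, Oxtr, Prlr and the 3 of highest level. Pde10a, Th, Slc6a3 and Drd4 were named after their values were seen. The alternatives were other scalings, filters and terms, each batch, each mouse left out, barcodes filtered (at least 200 genes, at most 5% mitochondrial) or thinned to 1000 UMIs, and barcodes of neighbouring tissue left out. By the study's methods every group was in each batch, but the labels give batch 1 no control RE library.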

Additional observations from a re-analysis of the deposited data

Results flagged for a closer look

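In groups of 4 mice, 1 mouse stood far from the other 3 (Dixon's 95% criterion) in 9 of 218 groups of values examined (4.13%), about the share that chance gives, 1 in 20. Of the 9, 3 came from stress RE mouse 75, which was at 1.55 CPM for Lum (the others 0.468 to 0.630), at 32.6 CPM for Dbp (15.4 to 18.0) and at 1069 CPM for the summed H3K4 methylation enzymes (1102 to 1107). Stress RE mouse 77 was at 12.5 CPM for mt-Atp8 (3.77 to 4.82). Control RE mouse 66 was at 0.214 CPM for Gpr6 (0.0780 to 0.100) and at 4.30 CPM for Gpr17 (2.44 to 2.66). Control RE mouse 87 was at 15.1 CPM for Crhr1 (11.0 to 11.3) and at 0.263 CPM for Gabrq (0.121 to 0.135). Control RE mouse 88 was at 829 CPM for the summed deep-layer cortical genes (977 to 1003).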

How the results depend on the processing

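The count of 0 genes at the adjusted threshold held in all 25 alternatives, 2 of them chosen after seeing the data, and the number at an unadjusted p under 0.05 ranged from 57 of 9448 genes (at least 10 CPM in 4 libraries) to 1311 (batch 2 alone). Of those 57, 17 were higher in stress RE, against 161 of 244. Of the 68 named genes 56 kept their sign throughout, and 36 of 1612 values reversed. In batch 2 alone the reversed values were −0.20 for Lum, 0.040 for Gpr161, 0.12 for Nr3c2, −0.23 for Malat1 and 0.031 for Lsamp, and in batch 3 alone −0.0096 for Prlr. With barcodes of 3 or more neighbouring-tissue genes left out they were −0.14 for Lum, −0.036 for Rgs9, −0.024 for Htr2c, 0.022 for Nr3c2 and −0.27 for Oxtr, and with 5 or more −0.026 for Lum and 0.048 for Nr3c2. DESeq2 without batch gave 0.0031 for Crhr1, 0.026 for Nr3c2 and −0.038 for Malat1. All 15 libraries with batch gave 0.068 for Nr3c2 and 0.0031 for Kcnip4, total-UMI scaling 0.0014 and no batch term 0.0058 for Nr3c2. Without mice 66 and 75 the values were 0.0012 for Gpr161, 0.13 for Nr3c2, −0.034 for Malat1, 0.055 for Kcnip4 and 0.030 for Lsamp. With 1 mouse left out at a time, Pecam1 ranged from −0.57 to 0.0045, Nr3c2 from −0.14 to 0.13, Malat1 from −0.046 to 0.16, Kcnip4 from −0.19 to 0.069 and Lsamp from −0.20 to 0.032. The causes were not tested. No paired analysis was possible because the labels give each mouse its own number, and no number links a stress RE mouse with a control RE mouse. Low counts limit genes under 1 CPM most.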
